A study of Caenorhabditis elegans with 2 samples.

Results

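The Ensembl annotation of the Caenorhabditis elegans genome places 129 of its 46926 genes in the snRNA class, and all 129 are described here. They are the genes of that biotype, with none left out. By symbol, 30 of them are spliced leader RNA genes, of which 18 encode SL2-type leaders and 12 encode the SL1 leader. The other 99 are the remaining snRNA-class genes, among them 10 smy genes. The class also holds mir-1831, a 22-base entry that lies inside the gene sup-39 and was kept as the annotation gives it. Because some genes lie beside each other, the 129 genes form 104 loci when those within 1000 bp are joined.

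Binding was measured by chromatin immunoprecipitation and sequencing in strain OP385, whose animals carry the transgene wgIs385, which encodes F55B11.4 with a C-terminal eGFP and FLAG tag, in an unc-119(tm4063) III background. Both libraries came from whole hermaphrodites at the young adult stage, 65 hours after synchronization as starved L1 larvae, and were precipitated with an antibody to GFP after sonication. They are biological replicates 1 and 2 of the only group, so all comparisons run between gene sets and between replicates. The animals belong to a single transgenic strain, and neither untagged animals nor the control library were analysed here. In chromatin of whole animals, binding in fewer cells and weaker binding in each cell cannot be told apart.

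Small nuclear RNAs are the RNA parts of the spliceosome, which removes introns from pre-mRNA. The U1 RNA pairs with the 5′ splice site, the U2 RNA pairs with the branch point, and the U6 RNA joins the active centre. Nematodes also join a short spliced leader to the 5′ end of many mRNAs in trans: SL1 goes mostly to genes at the start of a transcription unit, and SL2 mostly to the downstream genes of operons. A spliced leader RNA is itself an snRNA, with the leader at its 5′ end, a 5′ splice site directly after it and a binding site for Sm proteins near its 3′ end.

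The sequences of 4 spliced leader genes show what the SL2 and SL1 families share and where they part. The 3 SL2 genes shown had calls among the 1000 strongest of both replicates, and sls-1.10 stands for the 10 SL1 genes of 98 bases, which are identical. Capitals at the left mark the leader, up to the AG before the GT of the 5′ splice site, and capitals at the right mark the Sm site. The bases were read from the RefSeq genome of the ce11 build, 5′ to 3′ on the strand of the gene.
sls-2.1, chrII:5844865-5844974, plus strand: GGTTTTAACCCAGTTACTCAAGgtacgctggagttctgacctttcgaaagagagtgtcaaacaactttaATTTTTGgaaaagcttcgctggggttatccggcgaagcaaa
sls-2.16, chrIII:7141391-7141499, plus strand: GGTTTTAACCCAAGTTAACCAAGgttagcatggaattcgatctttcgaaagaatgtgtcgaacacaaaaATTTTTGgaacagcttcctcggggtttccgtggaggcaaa
sls-2.8, chrIII:12250465-12250575, plus strand: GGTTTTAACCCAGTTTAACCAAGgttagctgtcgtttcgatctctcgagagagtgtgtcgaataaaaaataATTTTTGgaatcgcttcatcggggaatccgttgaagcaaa
sls-1.10, chrV:17120694-17120791, minus strand: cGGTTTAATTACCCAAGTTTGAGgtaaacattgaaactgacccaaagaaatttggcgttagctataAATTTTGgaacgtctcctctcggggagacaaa

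All 18 SL2 genes held a leader by this rule, of 21 to 23 bases, in 11 distinct forms, the commonest shared by 4 genes. All 18 start with the same 5 bases. Among the SL1 genes, 10 of 12 held the leader, in 1 form, and the annotated gene starts 1 base before it. The other 2, sls-1.1 and sls-1.5, are annotated as 68 bases that start after the leader. The Sm site spelled ATTTTTG was found in 13 of 18 SL2 genes and in 0 of 12 SL1 genes, whereas AATTTTG was found in 4 of 18 SL2 genes and in 12 of 12 SL1 genes. Neither word contains the other, and the second was added after the sequences had been read.

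The other 99 genes fell mainly into a few sequence families, each joined by identity of at least 70% to another member over the whole gene. No gene is given a U number by the annotation, so the families are described by their letters. The largest has 24 genes with a median length of 102 bases, and 22 of them hold ACAGAGA, the letters of the U6 RNA that pair near the 5′ splice site. A family of 19 genes of 185 to 187 bases holds GTAGTA in 18, the letters with which U2 pairs with the branch point. A family of 13 genes includes sup-6 and sup-39, known as suppressor genes of the U1 type, and 12 of its genes hold ACTTACC, which pairs with the 5′ splice site. All 19 genes of the GTAGTA family and all 13 of the ACTTACC family hold ATTTTTG, and 0 of the 24 genes of the ACAGAGA family do. All 10 smy genes, which encode SmY RNAs, found with proteins of trans-splicing, hold it too. These 3 words (ACAGAGA in the first family, GTAGTA in the second and ACTTACC in the last) were chosen after the sequences had been read. The sequence of sup-6, the gene of its family with a pooled call, shows ACTTACC and ATTTTTG in capitals.
sup-6, chrII:12944803-12944967, minus strand: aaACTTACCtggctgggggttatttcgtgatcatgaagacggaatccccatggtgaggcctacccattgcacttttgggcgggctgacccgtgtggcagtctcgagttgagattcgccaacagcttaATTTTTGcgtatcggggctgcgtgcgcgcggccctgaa

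The 100 bases upstream of the genes were compared next, since transcription of snRNA genes is directed by a promoter element close to the 5′ end. Counting each distinct upstream sequence once, the word AACCCGC was the 7-base word found most often near 1 position, in 28 of 119 sequences, about 57 bases before the 5′ end. On the strand of the gene it was found upstream of 33 of 129 snRNA-class genes (25.6%), against 0.273% of 46878 nuclear gene starts. The word was picked from these same sequences, so its excess over all gene starts follows in part from the choice and is no test. It occurred in 9 of 18 SL2 genes, always 59 bases before the 5′ end, and in 0 of 12 SL1 genes. Among the other 99 genes it occurred in 24, including 10 of the 12 genes of a family of about 122 bases and 8 of the 13 genes of the ACTTACC family. A pair of words was added after the sequences had been read. TGTCGGT followed in 26 of 129 genes, 47 or 48 bases before the 5′ end, against 0.363% of all gene starts. TATATAA was found in 18 of 129 genes, 15 of them in the ACAGAGA family at 30 or 31 bases before the 5′ end, against 2.43% of all gene starts. TATAAA, searched on both strands from 250 bases before to 50 bases after the 5′ end, was found at 40 of 129 members (31%) and at 37.4% of all gene starts. Some SL2 genes carry no exact copy of AACCCGC, as sls-2.1 and sls-2.8 show. Capitals in these 7 upstream sequences mark the 3 words, where present.
sls-2.16, chrIII:7141291-7141390, plus strand: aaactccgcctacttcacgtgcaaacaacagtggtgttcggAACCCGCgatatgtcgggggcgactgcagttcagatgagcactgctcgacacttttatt
sls-2.8, chrIII:12250365-12250464, plus strand: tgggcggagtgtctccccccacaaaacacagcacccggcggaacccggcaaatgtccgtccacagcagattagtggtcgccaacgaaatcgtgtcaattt
sls-2.1, chrII:5844765-5844864, plus strand: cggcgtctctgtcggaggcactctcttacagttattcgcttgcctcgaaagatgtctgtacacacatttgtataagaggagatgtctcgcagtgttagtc
sup-6, chrII:12944968-12945067, minus strand: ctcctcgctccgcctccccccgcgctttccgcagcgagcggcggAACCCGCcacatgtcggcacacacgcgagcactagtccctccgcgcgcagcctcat
W05B2.8, chrIII:10989579-10989678, plus strand: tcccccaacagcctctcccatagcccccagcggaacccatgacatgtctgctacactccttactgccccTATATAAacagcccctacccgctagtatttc
F54D8.7, chrIII:5080899-5080998, minus strand: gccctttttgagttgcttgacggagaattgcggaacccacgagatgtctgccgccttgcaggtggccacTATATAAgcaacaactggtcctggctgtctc
sls-1.10, chrV:17120792-17120891, minus strand: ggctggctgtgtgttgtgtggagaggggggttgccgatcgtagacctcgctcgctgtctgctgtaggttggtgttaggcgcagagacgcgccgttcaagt

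The authors deposited calls of each replicate, of the pooled replicates and an optimal set. These lists held 21050 calls in replicate 1, 14257 in replicate 2, 670 in the pooled list and 48 in the optimal set. The single-replicate lists and the pooled list are permissive and include background, and no read counts were analysed here. Each call has a summit, a signal value on a scale set by the peak caller, and the −log10 of a q-value. The signal value served only to rank calls within a list, with rank 1 the strongest. The smallest q-value was 0.0667 in replicate 1, 0.0992 in replicate 2 and 0.0909 in the pooled list. The largest was 0.960 in each replicate and 0.961 in the pooled list, so the pooled list also holds weak calls. In the optimal set q-values ran from 0.0909 to 0.294. A strong call here is thus one of high rank in its list, not one with a small q-value. A gene was counted as called where a summit lay inside it or within 500 bp.

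Across all 129 snRNA-class genes, calls were no more common than across all genes in the full single-replicate lists. They were more common in the pooled list, the optimal set and the 1000 strongest calls of each replicate. In replicate 1, 39 of 129 genes were called (30.2%), against 35.0% of all annotated genes. In replicate 2, 36 were called (27.9%), against 27.1% of all genes. Both replicates called 20 (15.5%), against 16.0%, and either replicate called 55 (42.6%), against 46.1%. These shares are near the background and are no result about the class. The pooled list called 13 (10.1%, exact binomial 95% interval 5.48% to 16.6%), against 2.27% of all genes. The optimal set called 3 (2.33%, interval 0.482% to 6.65%), against 0.198% of all genes. Among the 1000 strongest calls, 14 genes were called in replicate 1 (10.9%), against 2.90% of all genes, and 10 in replicate 2 (7.75%), against 2.83%. In both replicates 7 were called at that strength (5.43%), against 0.654% of all genes. The intervals cover the counting of genes only.

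An snRNA gene is far shorter than a typical protein-coding gene, with a median of 109 bases against 2027, so a protein-coding gene offers a wider target. When the distance was taken to the annotated 5′ end instead, 35 of the 129 genes were called in replicate 1 (27.1%), against 19.4% of all genes. In replicate 2, 36 were called (27.9%), against 14.1%. In both replicates 18 were called (14.0%), against 4.87%, and in the pooled list 12 (9.30%), against 1.15%. The members' shares thus changed little, while the background was lower by this measure. Other classes of short gene lay on both sides of the snRNA class: the pooled list called 13 of 129 snRNA-class genes (10.1%), 44 of 346 snoRNA genes (12.7%), 95 of 612 tRNA genes (15.5%), 12 of 261 miRNA genes (4.60%) and 0 of 20 nuclear rRNA genes. Among the 1000 strongest calls of both replicates the shares were 5.43% of snRNA-class, 4.91% of snoRNA and 5.23% of tRNA genes, with 0 of the miRNA and rRNA genes.

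A larger share of the 18 SL2 genes than of the 12 SL1 genes or the other 99 genes was called in every list. Replicate 1 called 11 of 18 SL2 genes (61.1%), 0 of 12 SL1 genes and 28 of the other 99 (28.3%). With summits within 250 bp, or with the called interval overlapping the gene, the 11 became 7. The share of all genes was not computed under those rules, so the 7 cannot be set against a background. Replicate 2 also called 11 of 18 SL2 genes (61.1%) and 0 of 12 SL1 genes, with 25 of the other 99 (25.3%). Both replicates called 8 of 18 SL2 genes (44.4%) and 12 of the other 99 (12.1%), and either replicate called 14 of 18 (77.8%) and 41 of the other 99 (41.4%). In the pooled list 7 of 18 SL2 genes (38.9%, interval 17.3% to 64.3%) and 6 of the other 99 (6.06%, interval 2.26% to 12.7%) were called. The optimal set held 1 SL2 gene (5.56%, interval 0.141% to 27.3%) and 2 other genes (2.02%), against 0.198% of all genes. Of all genes, 35.0% were called in replicate 1, 27.1% in replicate 2, 16.0% in both, 46.1% in either and 2.27% in the pooled list. The other 99 genes thus lay near or below these shares in the single-replicate lists by this rule. With the distance taken to the 5′ end, 25 of the 99 were called in each replicate (25.3%), against 19.4% and 14.1% of all genes. Both replicates called 11 by that measure (11.1%), against 4.87%. The side of the background on which they lay thus depended on the rule, and no result about them is read from it. With the 12 SL1 genes included, the 30 spliced leader genes had 11 called in each replicate and 8 in both. Members that share a call or a locus are not independent, and the 13 pooled genes rest on 12 distinct calls.

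**Figure D1:**
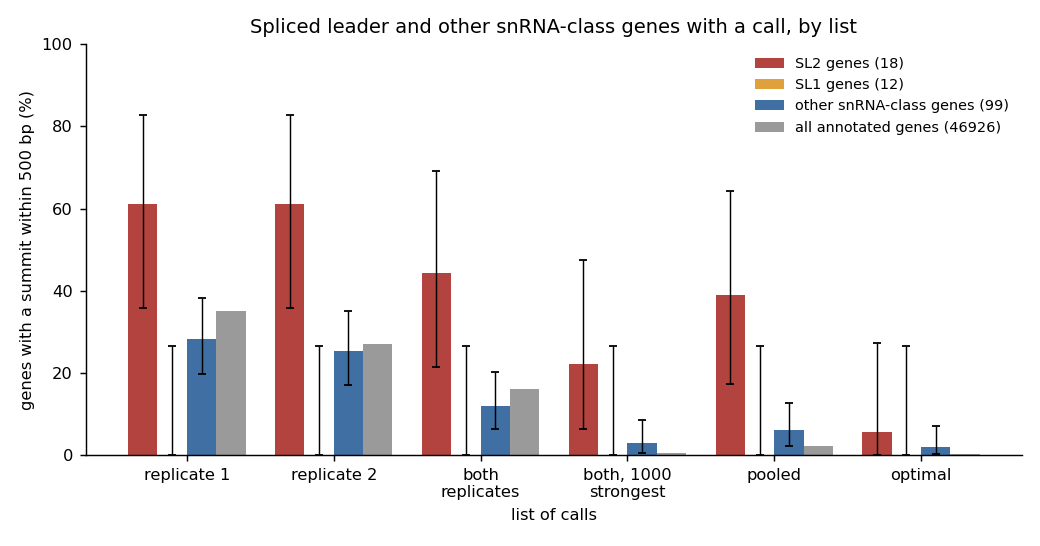
Percent of genes with a summit within 500 bp in each list of calls, for the SL2, SL1 and other snRNA-class genes and all annotated genes; black bars are exact binomial 95% intervals. The SL2 bar reaches 61.1% in each replicate and 38.9% in the pooled list, against 2.27% of all genes in the pooled list, and the SL1 genes are at 0 in every list.

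The SL2 gene with the strongest calls was sls-2.4, the SL2-type gene of the optimal set, on chromosome I at 4172206 to 4172315 on the plus strand. Its call had a signal value of 25.4 and rank 26 in replicate 1, and 34.4 and rank 34 in replicate 2. In the pooled list it ranked 24 of 670, with a signal value of 60.3 and a −log10 q of 0.83. The summits of the replicates lay 46 bp apart, at 228 and 182 bp after the 5′ end, downstream of the 110-base gene. Both replicates thus placed this call among their strongest, on the 3′ side of the gene. The protein-coding gene egg-5 had the closest 5′ end, 809 bp from the pooled summit.

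The 3 SL2 genes printed above were the others with strong calls in both replicates. At sls-2.1 the calls ranked 408 in replicate 1 and 155 in replicate 2, with summits 68 and 24 bp upstream of the 5′ end, and the pooled call ranked 67. At sls-2.16 the ranks were 572 and 221 in replicates 1 and 2, and the pooled rank was 80. Its replicate summits lay 4 bp apart, 189 and 193 bp after the 5′ end and so about 81 to 85 bp past the gene, inside the protein-coding gene glr-2. At sls-2.8 the ranks were 592 and 335, and the pooled rank was 93. Its replicate summits lay 178 bp apart, the first inside the gene and the second 102 bp past it and 17 bp from the 5′ end of Y75B8A.23. Of the 4 genes, sls-2.1 had its summits upstream in both replicates, and sls-2.4 and sls-2.16 had them downstream in both.

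A further set of SL2 genes was strong in 1 replicate only. The convergent genes sls-2.2 and sls-2.3 shared a call of rank 29 in replicate 1, 6 bp past the 3′ end of sls-2.3 and 451 bp past that of sls-2.2. In replicate 2, sls-2.2 had another call of rank 11594 inside the gene, and sls-2.3 had none, while the pooled list ranked the shared call 276. The divergent genes sls-2.14 and sls-2.15 shared a call of rank 46 in replicate 1, which lay inside sls-2.14 and 494 bp upstream of sls-2.15. Replicate 2 ranked its call at sls-2.14 at 3238, and the pooled list at 138. At sls-2.9 the call ranked 428 in replicate 2 and 20203 in replicate 1, and the replicate 2 summit lay near the tRNA gene M01E5.t1 as well. At sls-2.18, which lies near sls-2.16, the ranks were 5146 and 9719. The remaining called SL2 genes had a call in 1 replicate, at rank 1179 for sls-2.10 and ranks of 8523 to 15410 for sls-2.5, sls-2.6 and sls-2.12. Uncalled in either replicate were 4 of the 18, sls-2.7, sls-2.11, sls-2.13 and sls-2.17.

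None of the 12 SL1 genes had a summit within 500 bp in any list, against 35.0% of all genes in replicate 1 and 27.1% in replicate 2. By distance to the 5′ end, the shares of all genes were 19.4% and 14.1%. The exact binomial 95% interval for a count of 0 of 12 has an upper limit of 26.5%. It treats the genes as independent, which neighbouring copies are not, so no lack of calls relative to all genes is read from it. The 12 genes lie in an array at chrV:17118154-17132107, a span of 13954 bp that also holds 12 rRNA genes. No summit of any list fell within the array. The nearest summit outside it was 4546 bp away in replicate 1, 7863 bp in replicate 2 and 75001 bp in the pooled list. Within 20000 bp on both sides the single-replicate lists held 14 summits in replicate 1 and 8 in replicate 2. The array thus held no summit, while its flanks held some in both replicates. It is also repeated: all 12 SL1 genes consist wholly of 32-base words found elsewhere in the genome, and the gene with 500 bp to each side consists of such words to a median of 96.0%. Among the SL2 genes 0 of 18 were repeated over their whole length, and the median share of repeated words was 5.66% for the gene with its surroundings. Whether reads of the array could be placed was not measured, and the part of repetition in the missing calls was not tested. Of the 20 nuclear rRNA genes, 12 of which lie in the array, 1 was called in each replicate.

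Of the other 99 genes, W05B2.8 and F54D8.7 had peaks in the optimal set, and both belong to the ACAGAGA family. W05B2.8 had a signal value of 19 and rank 129 in replicate 1, and 31.3 and rank 46 in replicate 2, and its pooled call ranked 35. Its summits lay 43 bp apart, 96 and 139 bp past the gene, within the protein-coding gene dhc-4. F54D8.7, at chrIII:5080798-5080898 on the minus strand, ranked 115 in replicate 1, 141 in replicate 2 and 47 in the pooled list. Its summits lay 27 bp apart, 19 bp upstream of the 5′ end in replicate 1 and 8 bp inside the gene in replicate 2. In both genes the summits of the 2 replicates were within 43 bp of each other, past the gene in W05B2.8 and at the 5′ end in F54D8.7. The sequence of W05B2.8 is that of 14 annotated genes in all and occurs 17 times in the genome, while 7.10% of the words of the gene with its surroundings were repeated.

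Of the 24 genes in the family of W05B2.8 and F54D8.7, 6 were called in replicate 1 (25.0%), against 35.0% of all genes, and 7 in replicate 2 (29.2%), against 27.1%. Both replicates called 3 (12.5%), against 16.0%, and either called 10 (41.7%), against 46.1%. These shares are near the background by this rule. By distance to the 5′ end the counts were again 6 in replicate 1, 7 in replicate 2 and 3 in both. The shares of all genes were then lower, at 19.4%, 14.1% and 4.87%. Of the 17 that were repeated over their whole length, 9 were called in either replicate, against 1 of the 7 that were not. Another gene with calls in both replicates, T08B6.62, had calls of rank 4390 and 4761, but 473 and 447 bp upstream. Apart from W05B2.8 and F54D8.7, no gene of the family had a pooled call.

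In the ACTTACC family, sup-6 had the strongest calls of replicate 2 and the pooled list. Its call had a signal value of 15.1 and rank 648 in replicate 1, 29.4 and rank 59 in replicate 2, and rank 75 in the pooled list. The summits lay 31 and 2 bp past the gene, inside the protein-coding gene F58G1.7. T08G5.11 had the family's strongest call in replicate 1, at rank 570, with rank 4281 in replicate 2 and no pooled call. The family had 7 of 13 genes called in replicate 1 (53.8%), against 35.0% of all genes, 4 in replicate 2 (30.8%), against 27.1%, and 3 in both (23.1%), against 16.0%. With 13 genes the exact 95% intervals are wide, at 9.09% to 61.4% in replicate 2 and 5.04% to 53.8% in both. The other suppressor gene, sup-39, shared a replicate 2 call of rank 1237 with mir-1831, which lies inside it.

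The remaining families had fewer strong calls. C52E4.8, of a family of 5 genes of about 144 bases, ranked 4766 in replicate 1, 222 in replicate 2 and 204 in the pooled list. Its pooled summit lay 710 bp from the 5′ end of snr-4, an Sm protein gene and the closest protein-coding start. Y57G11C.35, of the GTAGTA family, ranked 10277 in replicate 1, 285 in replicate 2 and 643 in the pooled list. F32B5.9, of the family of about 122 bases, ranked 99 in replicate 1 with a summit 64 bp upstream of the 5′ end, had no call in replicate 2 and ranked 379 in the pooled list. F38E11.10 of the same family had calls in both replicates, at ranks 2759 and 10850. All of these were strong in at most 1 replicate. Of the 10 smy genes, 1 was called in replicate 1 (exact binomial 95% interval 0.253% to 44.5%), against 35.0% of all genes. In replicate 2, 0 were called (interval 0 to 30.8%), against 27.1% of all genes. Both intervals include the share of all genes, so these low counts are no result about the smy genes.

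**Figure D2:**
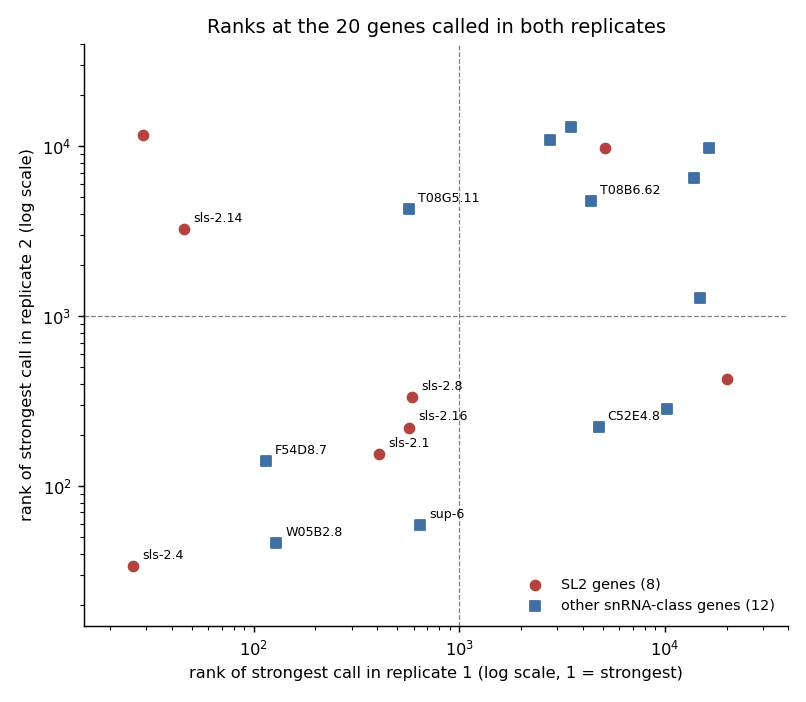
Rank of the strongest call in replicate 1 (horizontal) and replicate 2 (vertical), both on log scales, at the 20 genes called in both replicates; dashed lines mark rank 1000. The 4 SL2 and 3 other genes at lower left rank within the 1000 strongest calls of both replicates, and the other 13 do not.

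Replicate agreement was limited across the 129 genes, much as over all genes. Both replicates called 15.5% of the members and either called 42.6%, against 16.0% and 46.1% of all genes. The limited agreement is thus no trait of the class. Calls in both replicates were found at 20 genes, in replicate 1 alone at 19, in replicate 2 alone at 16 and in neither at 74. At the 20 genes the nearest summits of the replicates lay a median of 65 bp apart, with a range of 4 to 732 bp, and 11 of 20 were within 100 bp. The median gap was 96 bp at the 8 SL2 genes and 46.5 bp at the 12 other genes. All 7 genes within the 1000 strongest calls of both replicates had a gap of at most 178 bp. Since ranks were used and not read counts, the depth behind each call is unknown.

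The strongest call ranked higher in its list at SL2 genes than at the other genes. As a percentile of the list, where 100 is the strongest call, the median was 98.1 at the 11 called SL2 genes and 79.8 at the 28 other called genes in replicate 1, against 60.6 at all called genes. In replicate 2 it was 91.7 at 11 SL2 genes and 70 at 25 other genes, against 57.9 at all called genes. The SL2 genes ranged over nearly the whole list, with ranks of 26 to 20203 in replicate 1 and 34 to 11594 in replicate 2. Ranks within 1000 were reached by 8 of 18 SL2 genes in replicate 1 (44.4%) and 5 in replicate 2 (27.8%). Of the other 99 genes, 6 (6.06%) and 5 (5.05%) reached them, against 2.90% and 2.83% of all genes. In replicate 1, sls-2.2 and sls-2.3 share 1 call, as do sls-2.14 and sls-2.15, and the count and the median include each shared call at both genes.

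Summits lay more often past the gene than in front of it. At SL2 genes the strongest summit was a median of 160 bp after the 5′ end in replicate 1, with 2 of 11 upstream, 2 inside and 7 downstream of the gene. In replicate 2 the median was 193 bp, with 2 upstream, 1 inside and 8 downstream. In the pooled list it was 148 bp, with 1 upstream, 2 inside and 4 downstream. At the other genes the median was 173 bp in replicate 1, with 11 of 28 upstream, and 82.0 bp in replicate 2, with 6 of 25 upstream and 10 inside. The difference between the sets in these places was not tested, and their ranges overlapped in large part. With the 1000 strongest calls alone, the median distance of the nearest summit over both replicates was 34.0 bp at spliced leader genes instead of 186 bp. The upstream word AACCCGC, found at 9 of 18 SL2 genes, stands 59 bases before their 5′ end. Called intervals had median widths of 490 bp over the list of replicate 1 and 470 bp over that of replicate 2. How many intervals or summits lay over the word was not counted.

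**Figure D3:**
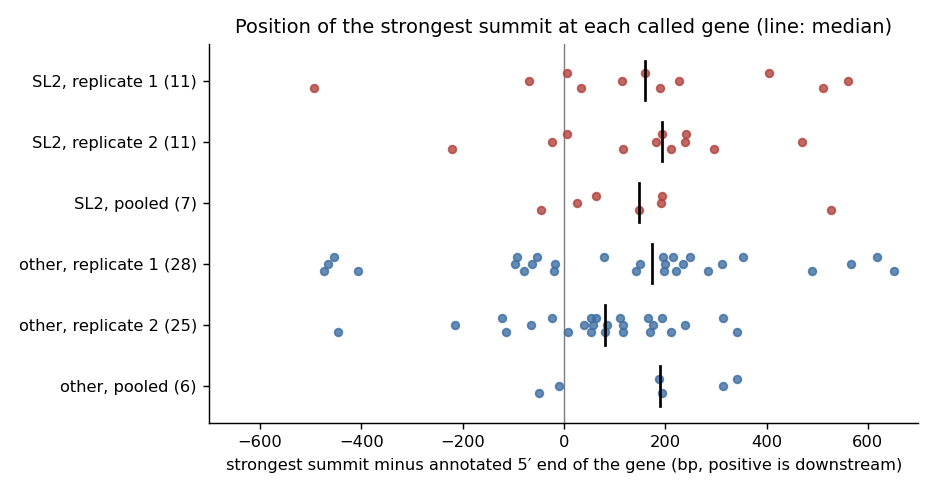
Distance in bp from the annotated 5′ end to the strongest summit of each called gene, by gene set and list, where positive is downstream and the black line is the median. The medians run from 82.0 to 193 bp, and the sets overlap in large part, with summits of SL2 genes reaching 527 bp in the pooled list and those of the other genes 342 bp.

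Calls were also counted by the upstream words. Over the whole snRNA class, the share called in the single-replicate lists was larger with AACCCGC than without it. Among the 33 genes with AACCCGC, 15 were called in replicate 1 (45.5%) and 12 in replicate 2 (36.4%), while among the 96 without it 24 were called in each (25.0%). The shares of all genes, 35.0% in replicate 1 and 27.1% in replicate 2, lie between them. In the pooled list the counts were 4 of 33 (12.1%) and 9 of 96 (9.38%), and all 3 genes of the optimal set lacked the word. For TATATAA the counts in either replicate were 9 of 18 with it and 46 of 111 without it, and the optimal set held 2 of the 18 and 1 of the 111. The 96 genes without AACCCGC include the 12 SL1 genes, none of them called. Among SL2 genes alone, the share called was not larger with AACCCGC than without it in either replicate. These are few genes, and some share calls in replicate 1: sls-2.14 and sls-2.15 hold the word, and sls-2.2 and sls-2.3 lack it. No direction is read from this. Of the SL2 genes strong in both replicates, sls-2.1, sls-2.4 and sls-2.8 lacked AACCCGC and sls-2.16 held it. No difference was tested, and genes of a family share their upstream sequence in part.

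Repetition differed between genes and their surroundings. The other 99 genes held 36 that were repeated over their whole length, of which 18 were called in either replicate (50%), against 23 of the 63 that were not (36.5%). For the same 99 genes, the share of repeated words in the gene with 500 bp to each side had a median of 8.89% at the 41 called in either replicate and 10.9% at the 58 called in neither. Over all 129 genes, which adds the 12 uncalled SL1 genes, it was 8.60% at the 55 called genes and 15.8% at the 74 others. Among called genes the highest share was 29.9%, at F08G2.11, and 28 genes exceeded it, the 12 SL1 genes, 1 SL2 gene and 15 others. These 28 genes are uncalled by the way that limit was set, and the 12 SL1 genes lie in 1 array. Which reads could be placed in such windows is not recorded in the lists, so the part of repetition in these counts was not tested.

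**Figure D4:**
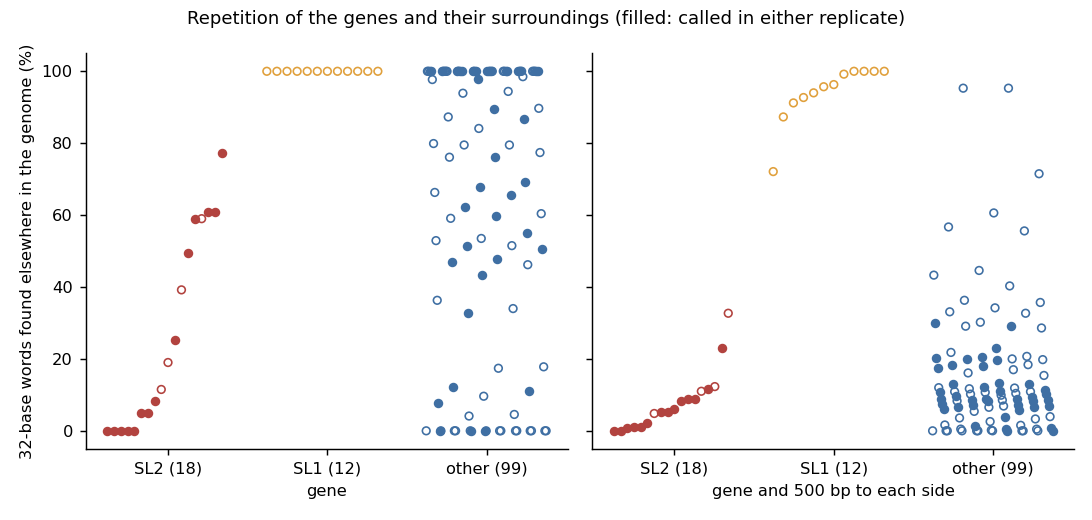
Percent of 32-base words that occur elsewhere in the genome, for the gene (left) and for the gene with 500 bp to each side (right), with 1 point for each gene and filled points for genes called in either replicate. The SL1 genes stand at 100% for the gene and at a median of 96.0% with their surroundings, and the highest filled point in the right panel is at 29.9%.

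Protein genes of the same pathway were examined through a list of Sm and LSm proteins, snRNA transcription and processing factors, spliceosomal proteins and trans-splicing proteins, of which 58 of 63 names were found. At their 5′ ends 15 of 58 were called in replicate 1 (25.9%), against 20.2% of protein-coding genes, and 10 in replicate 2 (17.2%), against 14.4%. Both replicates called 3 (5.17%), against 4.78%, and the pooled list called 0, against 0.771%. These shares were near the background. The 3 genes were sftb-1, a subunit of the U2 particle, with ranks 7690 and 9476, lsm-6, which encodes a protein of the ring that binds U6, with ranks 13345 and 9688, and prp-3, which encodes a protein of the U4/U6 particle, with ranks 16185 and 6193. None of them ranked within 1000 in either replicate.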

How the data were processed

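Per the labels, 2 immunoprecipitated libraries of 1 group were sequenced. The authors deposited narrowPeak lists on ce11. Their signal value is a score of peak strength on a scale not stated, and the deposited −log10 of the q-value is as the authors' caller wrote it. Aligner, peak caller and cut-offs were not given in the sources used here. Per the deposited notes, both replicates used 1 shared control library, not analysed here. The ce10 lists were not used.

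Genes came from Ensembl release 115 on WBcel235, which is ce11, with names from RefSeq by WormBase ID, since Ensembl repeats some symbols. Summits were compared with genes at 500 bp. A repeated word is a 32-base sequence found more than 1 time in the genome on either strand. Python 3.11.15, numpy 2.4.6, pandas 2.3.3, scipy 1.17.1 and matplotlib 3.10.9 were used; counting was checked on simulated data. There was no test: counts stand beside all genes, with exact 95% intervals for counting only.

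Named genes were those with optimal or pooled summits, those within the 1000 strongest calls of both replicates, up to 5 more per set by the worse of the 2 ranks, and pathway genes by that rank. F08G2.11, sup-39, mir-1831 and weaker SL2 genes were added after their values were seen. Members and lists were chosen with earlier results of these data known.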

Additional observations from a re-analysis of the deposited data

How the results depend on the processing

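Of 62 values under alternative settings, 49 stayed within 1.5 times the count reported or within the spread between replicates, and no distance changed sign. With summits within 250 bp, or with called intervals overlapping the gene, the spliced leader genes called in replicate 1 numbered 7 instead of 11. With summits within 1000 bp, 20 of the other genes were called in both replicates instead of 12. The share of all genes was not computed by overlap, at 250 bp or at 1000 bp. With the 1000 strongest calls alone, spliced leader genes numbered 5 in replicate 2 and 4 in both, and other genes 6 in replicate 1, 5 in replicate 2 and 3 in both. The other genes called in both replicates numbered 25 to 28 when 1 replicate was left out, which are the counts of the single replicates. The median distance of the nearest summit from the 5′ end, over both replicates, was 186 bp for spliced leader genes, 160 to 193 bp with 1 replicate left out and 34.0 bp with the 1000 strongest calls. For the other genes it was 57.0 bp, and 53.0 to 111 bp with 1 replicate left out. The count of 3 genes in the optimal set held under every alternative run, and word lengths of 24 and 50 left the repeated genes at 12 and 36. A count of called genes cannot rise with fewer calls or a tighter window. It cannot fall with a wider window, or when 1 replicate is left out of a count in both. The direction of those changes was thus fixed by the rules. The cause of the other changes was not tested. No paired analysis was possible because both replicates belong to 1 group. Read depth is unknown, so an uncalled gene is not shown to be unbound.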
